A study of Mus musculus with 6 samples.

Results

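A set of 7 genes whose RNA was higher in spermatids of smoke-exposed mice were followed through spermatogenesis in single-cell RNA-seq libraries of mouse testis. They are Camk2b, 4933411E08Rik, Smim23, Lyrm7, Tmem239, Nsun7 and Hoxa4, which are 7 of the 30905 genes counted. They were chosen by measured values, the counts summed over late spermatids, which had been higher in smoking than in control libraries, so their smoking difference in late spermatids is a description and no test of it is read here. The files held counts for all 7.

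The animals were male ICR mice, an outbred stock, bought at 6 weeks of age and kept for 1 week before a 12-week exposure. Mice of the smoking group stood in a chamber for 30 minutes each day with the smoke of 15 cigarettes, each holding 11 mg tar and 1.1 mg nicotine, which gave 3.47 mg/m3. Control mice stood daily in a chamber without smoke, and the age label of 8 weeks does not match this schedule. Each group had 7 mice and gave 3 libraries of dissociated left testis (10x Genomics 3′ chemistry). The labels do not tie libraries to mice, so the spread between libraries may be technical and p-values measure only that spread.

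Spermatids are the haploid cells that turn into sperm. In their nuclei the histones are replaced first by transition proteins (Tnp1, Tnp2) and then by protamines (Prm1, Prm2), transcription ceases as the chromatin condenses, and many messages are stored for later translation. The RNA of these 4 genes therefore builds up while the spermatid matures, and its share of a cell's transcripts places the cell along this path. In a cell with little new transcription, a transcript's share of the total depends on its own stability and on that of all other transcripts.

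A UMI (unique molecular identifier) marks 1 captured RNA molecule. Barcodes with at least 10000 UMIs were sorted by the percent of their UMIs that came from Prm1, Prm2, Tnp1 and Tnp2, into ranges of under 2%, 2 to 10%, 10 to 20%, and 20% or more. UMIs were summed over a range and library, and levels are given as CPM, a gene's UMIs per 1000000 UMIs of all genes. The libraries held 8598 to 9976 deposited barcodes and 39607204 to 78455606 UMIs, and after removal of probable doublets and barcodes rich in mitochondrial RNA 399, 368 and 994 control barcodes and 929, 945 and 1653 smoking barcodes of at least 10000 UMIs remained. The range of 20% or more held 175, 156 and 537 control and 530, 540 and 1048 smoking barcodes, of which 91.0% were elongating-spermatid-like. The range of 10 to 20% was a mix, with 39.4% of its barcodes in an unnamed cluster (number 24, led by Tuba8, Hemgn and Faiml), 30.3% elongating-spermatid-like and 12.9% round-spermatid-like. The ranges of 2 to 10% and under 2% were mainly round-spermatid-like (58.6% and 54.4%), and the latter also held 20.02% spermatocyte-like and 7.71% Leydig-like barcodes. Control 3 stood apart from the other controls, with more barcodes of 20% or more, so the members' ratios at 20% or more, their averages over the ranges and their folds in round-spermatid-like barcodes are also given without it. Library pairs shared 16 to 34 deposited barcode sequences, and at most 1 among retained barcodes of at least 10000 UMIs.

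The genes lie on 5 chromosomes of mm10, the build named in the submitters' processing notes, with positions from GENCODE release M21. Camk2b (chr11:5969644-6066362), Smim23 (chr11:32818529-32824605) and Lyrm7 (chr11:54826866-54860916) are on the minus strand of chromosome 11, which holds 6.61% of the annotated genes. 4933411E08Rik (chr10:117925459-117948292) is annotated as a long intergenic noncoding RNA, and the other 6 as protein-coding. Tmem239 is at chr2:130406478-130407902, Nsun7 at chr5:66259897-66298026 and Hoxa4 at chr6:52189671-52191753. The whole of Tmem239 lies within Gm28372 on the same strand, and Hoxa4 lies within Gm28308 and Hoxa3 on the same strand and within the antisense gene Hoxaas3. Whether counting used strand is not stated in the labels or headers. Reads that fit more than 1 of these genes may have been assigned to either or left out. In barcodes of 20% or more Hoxa3 stood at 0.454 to 0.890 CPM and Gm28308 had no UMI in any library.

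RefSeq gave the 250 bases before its own start of 5 of the 7 genes (GRCm38.p6, 5′ to 3′ on the gene's strand). These starts can differ from the GENCODE positions above. The sequences of Camk2b and Lyrm7 lie within the genes as placed there, and that of Tmem239 runs past its GENCODE start. Those of 4 genes are shown because 3 of them, Camk2b, 4933411E08Rik and Tmem239, rose together from 2 to 10% to 10 to 20% under both scalings of the counts that were tried, and Lyrm7 turned with the scaling. Nsun7 turned too, and its sequence is not shown. Capitals mark the TATA box TATAAA (or its complement TTTATA), the CCAAT box CCAAT (or ATTGG) and the GC box GGGCGG (or CCGCCC), so both strands are covered.
Camk2b, chr11:6065749-6065998, minus strand: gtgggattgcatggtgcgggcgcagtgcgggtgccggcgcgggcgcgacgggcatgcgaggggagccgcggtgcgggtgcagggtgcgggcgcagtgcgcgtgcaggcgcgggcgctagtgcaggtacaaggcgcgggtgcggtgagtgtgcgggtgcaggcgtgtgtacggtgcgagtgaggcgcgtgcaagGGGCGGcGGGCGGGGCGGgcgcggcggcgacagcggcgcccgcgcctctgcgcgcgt
4933411E08Rik, chr10:117925209-117925458, plus strand: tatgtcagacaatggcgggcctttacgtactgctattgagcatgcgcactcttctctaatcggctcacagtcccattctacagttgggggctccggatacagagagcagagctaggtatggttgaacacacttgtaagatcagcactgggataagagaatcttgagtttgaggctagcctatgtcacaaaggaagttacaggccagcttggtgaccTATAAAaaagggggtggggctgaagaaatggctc
Tmem239, chr2:130406272-130406521, plus strand: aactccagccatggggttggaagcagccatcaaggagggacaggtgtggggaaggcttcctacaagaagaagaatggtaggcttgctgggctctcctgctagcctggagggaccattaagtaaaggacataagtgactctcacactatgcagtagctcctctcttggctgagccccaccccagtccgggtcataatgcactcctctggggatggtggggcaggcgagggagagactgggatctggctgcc
Lyrm7, chr11:54860598-54860847, minus strand: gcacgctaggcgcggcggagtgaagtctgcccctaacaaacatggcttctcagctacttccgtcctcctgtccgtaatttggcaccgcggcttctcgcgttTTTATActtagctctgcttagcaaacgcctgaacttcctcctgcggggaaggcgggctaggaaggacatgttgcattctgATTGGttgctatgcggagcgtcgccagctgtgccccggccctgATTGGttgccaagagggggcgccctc
Camk2b held 3 copies of GGGCGG in a sequence of 78.4% G and C, more than in 98.3% of all promoters of this table. 4933411E08Rik held 1 TATAAA starting 34 bases before the transcription start, and Lyrm7 held 2 copies of ATTGG and 1 of TTTATA. Tmem239 held none of the 3, and Nsun7 held 1 CCGCCC and neither of the others. None of the motifs was common to Camk2b, 4933411E08Rik and Tmem239, and neither TGACG nor the full cAMP response element TGACGTCA was found in the 5 promoters. Among 32851 promoters of this length 12.4% held TATAAA, 33.9% CCAAT, 32.7% GGGCGG, 17.8% TGACG and 1.55% TGACGTCA on either strand.

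Camk2b encodes the beta subunit of calcium/calmodulin-dependent protein kinase II, which binds actin filaments and is best known from neurons. It was mostly an RNA of late spermatids. With under 2% protamine and transition protein RNA its level was 1.11 to 2.59 CPM in all 6 libraries. In barcodes of 20% or more it was 13.04, 22.5 and 14.8 CPM in controls 1 to 3 and 25.3, 27.1 and 38.2 CPM in smoking libraries 1 to 3. All smoking libraries were above all controls, with means of 16.8 ± 5.05 and 30.2 ± 6.99 CPM (SD, n = 3), a ratio of 1.797. At 10 to 20% the values were 12.5, 0.871 and 14.8 CPM against 17.4, 11.9 and 38.0 CPM, and the groups overlapped. At 2 to 10% the order turned, with 3.77 ± 2.02 CPM in controls and 2.47 ± 1.44 in smoking libraries, but these rest on 13 and 10 UMIs.

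4933411E08Rik, the noncoding RNA, had the tightest separation of the groups. In barcodes of 20% or more it was 29.3, 29.0 and 34.5 CPM in controls and 53.9, 56.2 and 58.6 CPM in smoking libraries. The lowest smoking library was far above the highest control, the means were 30.9 ± 3.08 and 56.2 ± 2.33 CPM, and the ratio was 1.82. The groups did not overlap at 10 to 20% either, with 22.6, 20.9 and 36.7 CPM against 39.8, 41.3 and 41.9 CPM. At 2 to 10% they did, since smoking library 2 (14.7 CPM) stood with control 3 (14.3 CPM). Under 2% it was 6.96, 7.54 and 7.32 CPM in controls and 12.3, 11.3 and 12.8 CPM in smoking libraries, again without overlap.

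Smim23 encodes a small integral membrane protein. It climbed from 58.6 to 149 CPM under 2% to 422 to 666 CPM at 20% or more. In that highest range controls were at 494, 429 and 422 CPM and smoking libraries at 666, 513 and 516 CPM. The groups did not overlap, but smoking library 1 stood well above the other smoking libraries, which were close to control 1. The means were 448 ± 40.04 and 565 ± 87.3 CPM, a ratio of 1.26. Smoking library 1 was also the highest in the 3 lower ranges, with 149, 332 and 667 CPM.

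Tmem239, a predicted transmembrane protein gene, was the other member with little RNA before late spermatids. It was at 0.740 to 1.77 CPM under 2% and at 0.639 to 4.17 CPM at 2 to 10%, the latter from 10 UMIs in each group. In both ranges the smoking mean was the lower one, with ratios of 0.840 and 0.774 and overlapping groups. In barcodes of 20% or more it was 11.5, 13.8 and 13.9 CPM in controls and 15.8, 19.3 and 20.9 CPM in smoking libraries. The groups did not overlap there, with means of 13.1 ± 1.35 and 18.7 ± 2.61 CPM and a ratio of 1.43. The enclosing gene Gm28372 was also higher at 20% or more than under 2%, where it was at 0.885 to 3.104 CPM, but its groups overlapped. At 20% or more it was at 10.3, 6.76 and 9.12 CPM in controls and 10.4, 9.45 and 8.86 CPM in smoking libraries.

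Lyrm7 encodes a mitochondrial LYR motif protein, a chaperone that holds the Rieske iron-sulphur protein before it is built into respiratory complex III. Its share of UMIs was lower in late than in early spermatids. It was 117, 193 and 136 CPM in controls and 203, 242 and 205 CPM in smoking libraries under 2%, without overlap. At 20% or more it was 72.0, 115 and 74.9 CPM against 129, 177 and 121 CPM, with means of 87.2 ± 23.9 and 142 ± 30.1 CPM and a ratio of 1.63. Control 2 was the highest control and smoking library 2 the highest smoking library in both ranges. At 10 to 20% this spread made the groups overlap, with 176 CPM in control 2 against 147 and 132 CPM in smoking libraries 1 and 3. At 2 to 10% the levels were 131 to 189 CPM in controls and 186 to 227 CPM in smoking libraries, with overlap.

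Nsun7 belongs to the NOP2/Sun family, most of whose members methylate cytosines in RNA, and loss of its function in mice has been linked to poorly motile sperm. Its level in CPM was lowest at 10 to 20%. At 20% or more it was 40.8, 44.5 and 43.2 CPM in controls and 49.96, 53.5 and 55.2 CPM in smoking libraries. These narrow groups did not overlap, and their means were 42.9 ± 1.88 and 52.9 ± 2.66 CPM, a ratio of 1.23. At 10 to 20% it was 21.8, 33.1 and 34.4 CPM against 49.8, 37.5 and 54.8 CPM, without overlap. At 2 to 10% and under 2% the groups overlapped, at 44.8 to 58.3 and 47.1 to 65.1 CPM over the 6 libraries.

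Hoxa4 encodes a homeodomain transcription factor of the Hox clusters, known for patterning of the body axis and, among Hox genes, for RNA in male germ cells. Its share of UMIs was highest under 2%, at 171, 156 and 170 CPM in controls and 198, 179 and 233 CPM in smoking libraries. At 20% or more it was 134, 122 and 113 CPM against 135, 147 and 156 CPM. The groups did not overlap, but smoking library 1 was only just above control 1, and the ratio of 1.19 (means 123 ± 10.3 and 146 ± 10.3 CPM) was the smallest of the 7. At 10 to 20% and 2 to 10% the groups overlapped.

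**Figure D1:**
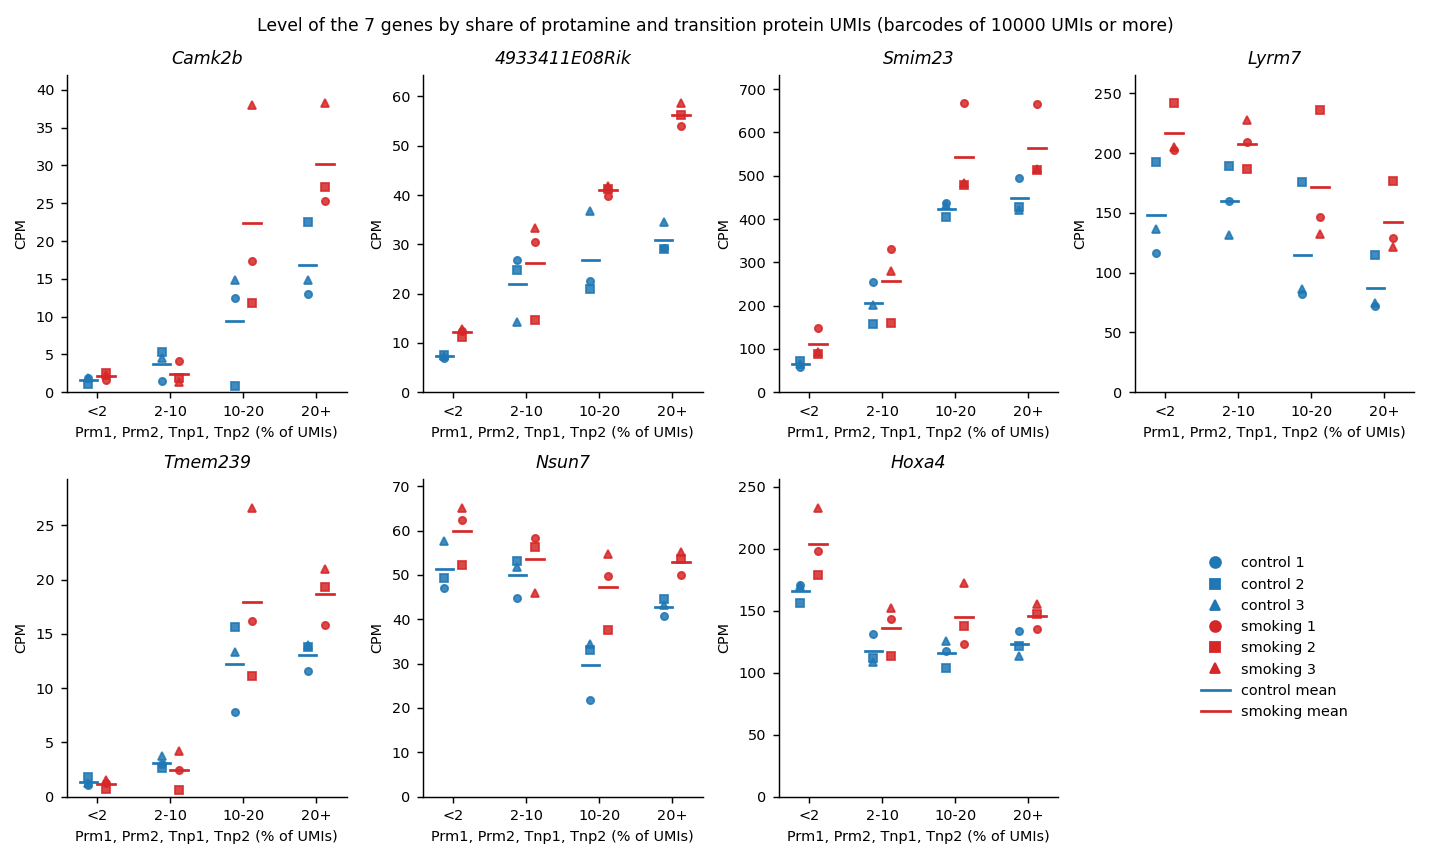
Level of each gene in CPM (linear axis from 0) against the percent of a barcode's UMIs from Prm1, Prm2, Tnp1 and Tnp2, in barcodes of 10000 UMIs or more. Each point is a library (blue control, red smoking; marker shape gives the number) and each bar a group mean; Camk2b, 4933411E08Rik, Smim23 and Tmem239 are highest at 20% or more, and all 7 red groups lie above the blue ones there.

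For all 7 genes, then, the 3 smoking libraries were above the 3 controls at 20% or more, as the choice of the genes had fixed. Of 4147 genes with at least 10 CPM there, 5.67% had smoking above control without overlap and 31.9% had control above smoking. The library that stood highest was not the same for all: smoking library 3 for Camk2b, 4933411E08Rik, Tmem239, Nsun7 and Hoxa4, smoking library 1 for Smim23 and smoking library 2 for Lyrm7. In lower ranges without overlap, 4 members (4933411E08Rik, Smim23, Lyrm7 and Hoxa4) were higher with smoke under 2%, where 5.67% of 8547 genes were, none at 2 to 10%, where 2.06% of 8443 genes were, and 3 (4933411E08Rik, Smim23 and Nsun7) at 10 to 20%, where 6.64% of 5737 genes were. Of barcodes of at least 10000 UMIs, 50, 45 and 83 in controls and 72, 47 and 75 in smoking libraries were spermatocyte-like. Round-spermatid-like ones numbered 78, 83 and 239 against 232, 164 and 358, so the mix of classes was not alike in the groups. Its part in the values under 2% was not tested. Over all genes, edgeR's quasi-likelihood test called 1.59% of 10960 higher and 2.34% lower with smoke at 20% or more, and 0.0% in each of the 3 lower ranges. With total UMI scaling it called 0.164% higher and 5.81% lower at 20% or more. The members' choice rests on this contrast, so nothing is read from their place in it. Without control 3 the ratios at 20% or more were 1.70 for Camk2b, 1.93 for 4933411E08Rik, 1.22 for Smim23, 1.53 for Lyrm7, 1.48 for Tmem239, 1.24 for Nsun7 and 1.14 for Hoxa4. All 7 then again had no overlap, as had 11.0% of 4137 genes with smoking higher and 42.5% with smoking lower. The members' log2 folds at 20% or more were 0.41 to 1.05 with TMM scaling and 0.25 to 0.90 with total UMIs, whose medians over all genes tested were -0.03 and -0.17.

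The barcodes of 20% or more were not alike in the groups. Their median percent of protamine and transition protein UMIs was 28.0, 29.9 and 29.5 in controls and 31.4, 30.5 and 30.5 in smoking libraries, and their median UMIs were 21556, 19544 and 21996 against 23664, 26230 and 21897. They made up 46.8% ± 6.34 of control and 59.2% ± 3.64 of smoking barcodes of at least 10000 UMIs (SD, n = 3). Of 15 abundant late spermatid genes, which include those 4, edgeR called 8 higher with smoke in this range and none lower (median log2 fold 0.22), and 1 higher when scaled by total UMIs (median 0.06). Of the deposited barcodes of at least 10000 UMIs, 22.6%, 16.9% and 10.4% in controls and 13.3%, 14.6% and 12.6% in smoking libraries had been removed as probable doublets. The part of these differences in the members' values was not tested. To narrow the difference in maturity, the range was divided further.

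Within 20 to 25%, all 7 genes had every smoking library above every control. The ratios of means there were 2.48 for Camk2b, 2.01 for 4933411E08Rik, 1.66 for Tmem239, 1.58 for Lyrm7, 1.36 for Nsun7, 1.31 for Hoxa4 and 1.196 for Smim23. Within 25 to 30% the groups of Camk2b, 4933411E08Rik, Smim23 and Lyrm7 again did not overlap, whereas Tmem239, Nsun7 and Hoxa4 were higher in 6, 6 and 7 of the 9 pairs of a smoking and a control library. At 30% or more 5 genes did not overlap, and Camk2b and Hoxa4 were higher in 8 of 9 pairs. From 20 to 25% to 30% or more the ratio went from 2.48 through 1.87 to 1.57 for Camk2b, from 2.01 through 1.96 to 1.60 for 4933411E08Rik and from 1.31 through 1.16 to 1.14 for Hoxa4. It went from 1.58 to 1.71 for Lyrm7 and from 1.196 to 1.33 for Smim23, and for Tmem239 and Nsun7 it was lowest at 25 to 30%, at 1.19 and 1.11. These changes of ratio were not tested. The finer ranges hold the late spermatids whose values had chosen the genes, so their counts without overlap are a description only. The share of all genes without overlap in each finer range was not counted.

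**Figure D2:**
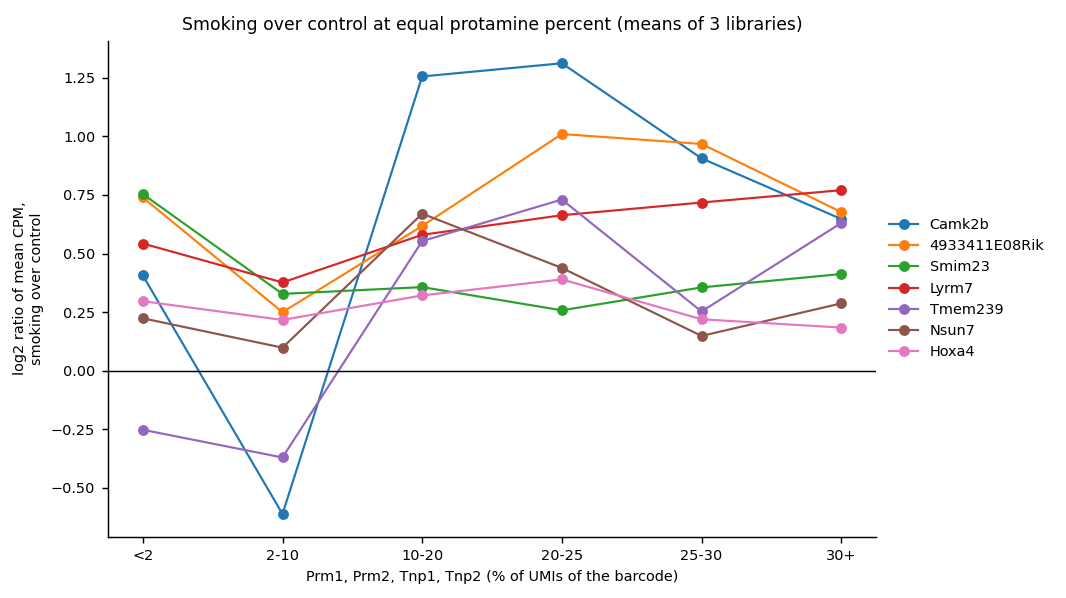
Log2 ratio of mean CPM, smoking over control (3 libraries each), for each gene against the percent of UMIs from Prm1, Prm2, Tnp1 and Tnp2, with the range of 20% or more divided at 25% and 30%. The line at 0 marks equal levels; all 7 genes are above 0 from 10% up, Tmem239 is below 0 under 2%, and Camk2b and Tmem239 are below 0 at 2 to 10%, where each rests on 10 UMIs in the smoking libraries.

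To weigh the stages equally, each library's levels were averaged over the ranges of 2 to 10%, 10 to 20%, and 20% or more. Camk2b was then at 8.997, 9.58 and 11.4 CPM in controls and 15.6, 13.6 and 25.9 CPM in smoking libraries, a ratio of 1.84. 4933411E08Rik was at 26.2, 24.9 and 28.5 CPM against 41.4, 37.4 and 44.6 CPM, a ratio of 1.55. Lyrm7 was at 105, 160 and 97.4 CPM against 162, 200 and 160 CPM, a ratio of 1.44. For these genes the groups did not overlap, though for Lyrm7 control 2 (159.8 CPM) was next to smoking library 3 (160.3 CPM).

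Nsun7 was at 35.8, 43.6 and 43.1 CPM against 52.7, 49.1 and 51.9 CPM by the same average, and Hoxa4 at 128, 112 and 116 CPM against 134, 133 and 160 CPM, both without overlap (ratios 1.25 and 1.199). Smim23 was at 395, 331 and 352 CPM against 555, 384 and 427 CPM, and its groups overlapped (ratio 1.27, higher in 8 of 9 pairs). Tmem239 was at 7.44, 10.7 and 10.3 CPM against 11.5, 10.4 and 17.2 CPM and also overlapped (ratio 1.37, 8 of 9 pairs). Of 6609 genes 3.96% were higher with smoke without overlap and 10.8% lower. With the limits at 25% and 30% added, the groups of all 7 genes stood apart, as did those of 5.43% of 5858 genes with smoking higher and 11.3% with smoking lower. With all barcodes from 2% up summed, 6 genes did (not Lyrm7), beside 5.05% of 5071 genes higher and 29.7% lower. Without control 3 the same 5 genes as with it had no overlap, where 8.54% of 6618 genes were higher and 18.2% lower, and the ratios were 1.98 for Camk2b, 1.61 for 4933411E08Rik, 1.25 for Smim23, 1.31 for Lyrm7, 1.44 for Tmem239, 1.29 for Nsun7 and 1.19 for Hoxa4.

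The share of barcodes with any UMI of a gene was compared after thinning each barcode to 10000 UMIs. At 20% or more the share with a Camk2b UMI was 14.8% ± 4.002 in controls and 22.3% ± 3.50 in smoking libraries (25.8% and 40.1% before thinning; SD, n = 3). For 4933411E08Rik it was 25.8% ± 5.36 and 41.9% ± 1.29 (49.8% and 72.4% before thinning), and for Lyrm7 54.3% ± 5.77 and 73.1% ± 7.12 (79.3% and 91.8%). Smim23 was found in nearly every late spermatid, in 96.5% ± 1.72 and 99.6% ± 0.183. For Tmem239 the shares were 11.9% ± 2.48 and 17.0% ± 3.80 (27.0% and 37.4% before thinning), and the groups overlapped, with 14.5% in control 3 against 13.2% in smoking library 1. For Nsun7 they were 33.7% ± 2.59 and 40.5% ± 1.04 (60.0% and 70.8%), without overlap. For Hoxa4 they were 72.7% ± 6.62 and 76.96% ± 3.59 (90.6% and 96.2%), with overlap, since control 1 was at 80.0%.

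Leydig-like barcodes are somatic, and a UMI there may be free RNA or the cell's own, which was not tested. The 139 such barcodes were pooled over libraries that held from 2 (control 2) to 46 (smoking library 2). After thinning, 3.60% of them had a Camk2b UMI, 2.16% a 4933411E08Rik UMI, 18.7% a Lyrm7 UMI and 32.4% a Smim23 UMI. The shares there were 0.719% for Tmem239, 11.5% for Nsun7 and 27.3% for Hoxa4.

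How each gene moves along the protamine scale was tested within libraries, with edgeR's quasi-likelihood test and library as a block. The block takes out a library's average level, but not a smoking difference that varies between ranges. The late spermatid counts by which the genes were chosen therefore still enter these steps. All 7 genes changed across the 4 ranges (adjusted p from 4.75e-19 for Smim23 to 3.25e-08 for Lyrm7), but so did 92.5% of 13854 genes. Moreover, the genes had been chosen where they had enough RNA in late spermatids to be tested. The direction depends on scaling: the median log2 change over all genes tested differed between TMM and total UMI scaling by 0.17, 0.92 and 0.88 for the 3 steps up the scale.

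From 2 to 10% to 10 to 20%, 4 genes rose under both scalings. Tmem239 rose by a log2 fold of 3.38 (SE 0.33, adjusted p = 2.17e-09) with TMM and 2.47 with total UMIs. The other 3 log2 folds with TMM and with total UMIs were 3.24 and 2.30 for Camk2b, 1.98 and 1.08 for Smim23, and 1.43 and 0.53 for 4933411E08Rik. With TMM 27.2% of genes were called higher in this step and 36.9% lower, and with total UMIs 11.4% were called higher and 68.9% lower. Lyrm7 turned with the scaling, from 0.47 (adjusted p = 0.0123) to -0.42 (adjusted p = 0.00351), as did Nsun7, from 0.47 (adjusted p = 0.00527) to -0.45 (adjusted p = 0.00465). Hoxa4 rose by 0.94 with TMM (adjusted p = 1.57e-07) and stood at 0.04 with total UMIs (adjusted p = 0.681).

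From under 2% to 2 to 10%, Smim23 (log2 fold 1.61 with TMM and 1.41 with total UMIs), 4933411E08Rik (1.47 and 1.28) and Tmem239 (1.31 and 1.11) rose under both scalings, where 22.2% of genes were called higher and 11.7% lower with TMM and 17.8% and 21.1% with total UMIs. Hoxa4 fell under both, by 0.36 and 0.55 on the log2 scale. Camk2b, Lyrm7 and Nsun7 did not pass the test in this step. In the last step, to 20% or more, the TMM fit called all 7 higher (log2 folds from 0.58 to 1.48, where 22.6% of genes were called higher and 22.1% lower). With total UMIs only Nsun7 was still called higher (0.33, adjusted p = 0.028), Lyrm7 was called lower (-0.31, adjusted p = 0.0315) and the other 5 did not pass, where 3.28% of genes were called higher and 50.9% lower.

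Cell classes rebuilt by clustering without the 7 genes, and named from marker genes, were used to compare levels over all retained barcodes. Camk2b averaged 24.2 ± 9.53 CPM over the 6 libraries in elongating-spermatid-like barcodes and 3.27 ± 0.776 CPM in round-spermatid-like ones, and Tmem239 16.4 ± 3.96 and 2.47 ± 0.316 CPM. Camk2b was also found at 12.4 ± 7.31 CPM in cluster 24, at 8.82 ± 2.50 CPM in Sertoli-like barcodes, a somatic class, and at 8.10 ± 3.36 CPM in spermatogonia-like ones, the last from 48 UMIs in all. Tmem239 was at 11.6 ± 2.71 CPM in cluster 24 and 6.24 ± 1.64 CPM in Sertoli-like barcodes. The part of free RNA in these values was not tested. 4933411E08Rik was at 44.1 ± 13.6 CPM in elongating-spermatid-like, 19.5 ± 2.22 in round-spermatid-like and 5.87 ± 1.15 in spermatocyte-like barcodes. Smim23 was at 502 ± 91.1 CPM in elongating-spermatid-like barcodes and 527 ± 95.0 in cluster 24, which lie within each other's spread, and at 190 ± 41.9 CPM in round-spermatid-like ones.

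In CPM of all UMIs, the other 3 genes did not have their highest level in late spermatids. In the last step across the ranges, however, the TMM fit called all 3 higher. Its log2 folds were 0.58 for Lyrm7, 1.22 for Nsun7 and 0.93 for Hoxa4, so the range in which they peak depends on scaling. Lyrm7 was highest in round-spermatid-like barcodes (225 ± 54.9 CPM), then in cluster 24 (146 ± 57.2) and elongating-spermatid-like ones (114 ± 39.2), whose ranges over the libraries overlapped. Nsun7 was at 62.6 ± 5.99 CPM in round-spermatid-like, 49.9 ± 4.53 in spermatocyte-like and 49.6 ± 5.06 in elongating-spermatid-like barcodes, the latter pair within each other's spread. Hoxa4 was highest in spermatocyte-like barcodes (245 ± 43.2 CPM), followed by round-spermatid-like (161 ± 24.7), elongating-spermatid-like (140 ± 16.4) and cluster 24 (111 ± 9.10). By level in CPM, the name of late spermatid genes holds for Camk2b, 4933411E08Rik, Smim23 and Tmem239, whereas Hoxa4 was more abundant per UMI in meiotic cells. In spermatogonia-like barcodes Hoxa4 was at 50.7 ± 7.34 CPM and in Leydig-like ones at 56.1 ± 19.6 CPM, and the part of free RNA in these was not tested.

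**Figure D3:**
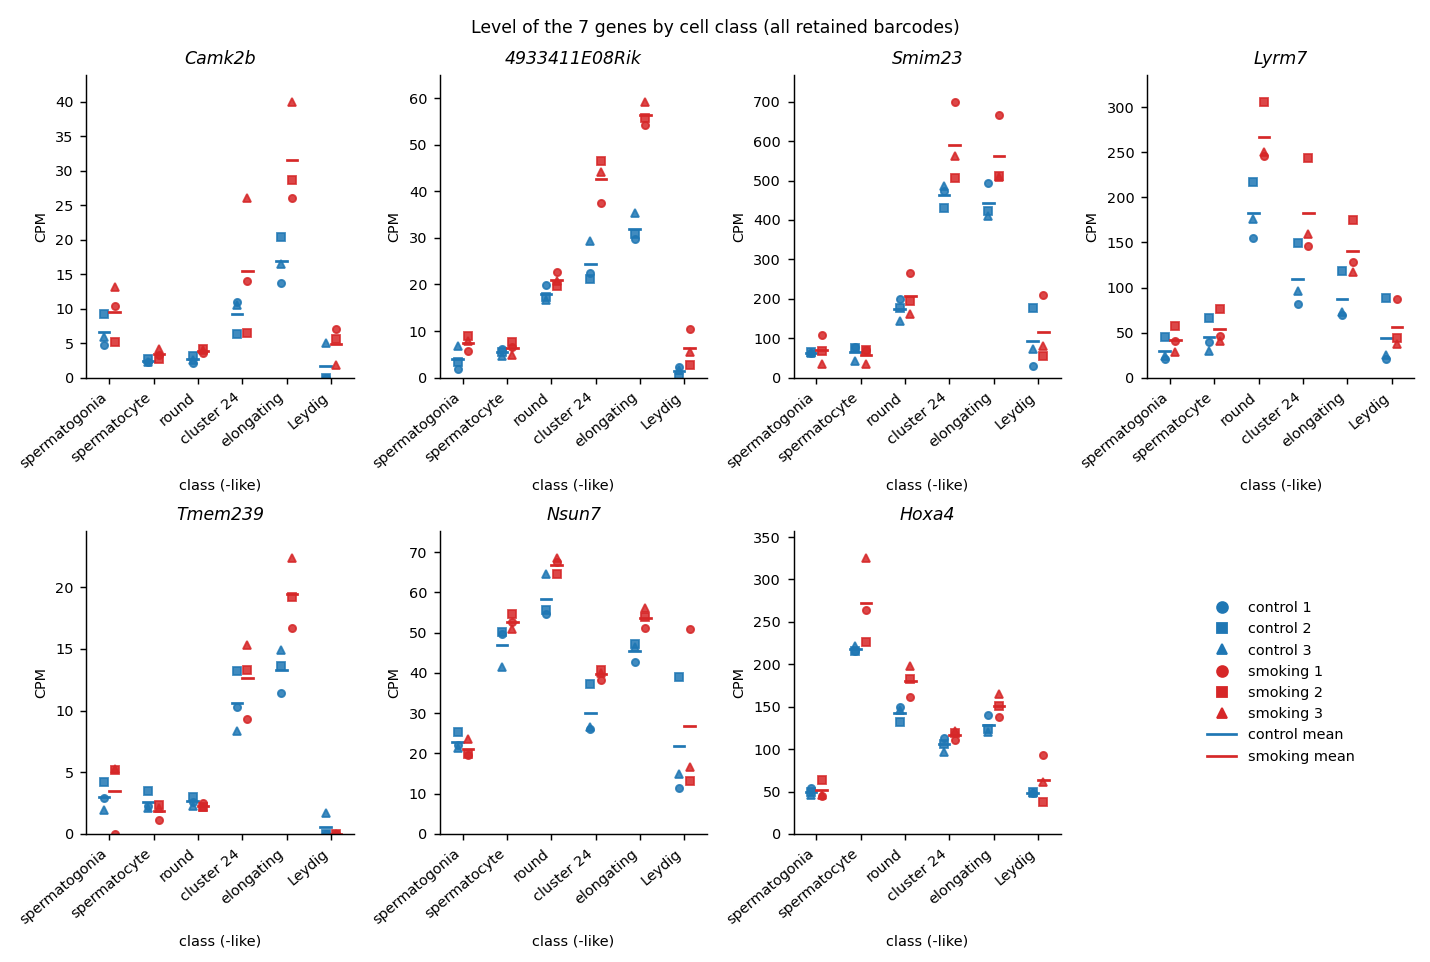
Level of each gene in CPM (linear axis from 0) in 5 germ cell classes and in Leydig-like barcodes, over all retained barcodes. Each point is a library (blue control, red smoking) and each bar a group mean; Camk2b, 4933411E08Rik and Tmem239 peak in the elongating-spermatid-like class, Lyrm7 and Nsun7 in the round-spermatid-like class and Hoxa4 in the spermatocyte-like class.

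Smoking and control were then compared in the 2 earlier classes, which were not used to choose the genes but come from the same libraries and in part from the same barcodes as the ranges below 10%. The largest round-spermatid-like cluster had a median of 3110 UMIs and 6.74% protamine and transition protein RNA, and the largest spermatocyte-like one 3026 UMIs and 6.64%. Clusters 17 and 22 of these classes had medians of 33024 and 27232 UMIs and 1.19% and 1.11%. The part of free RNA from late spermatids in this comparison was not tested. In round-spermatid-like barcodes edgeR's quasi-likelihood test called 0.0% of 13853 genes higher and none lower at an adjusted p under 0.05, although 2311 genes had an unadjusted p under 0.05. DESeq2 called 64 of the 6600 genes to which it gave an adjusted p, and it gave none to Camk2b and Tmem239. No member passed edgeR's test, and DESeq2 called Lyrm7 and Hoxa4. Lyrm7 was at 155, 217 and 176 CPM in controls and 246, 306 and 250 CPM in smoking libraries, all higher than any control, with a log2 fold of 0.59 (SE 0.13, edgeR adjusted p = 0.265, DESeq2 adjusted p = 0.00318). Hoxa4 was at 149, 131 and 146 CPM against 161, 182 and 198 CPM, also without overlap, with a log2 fold of 0.39 (SE 0.09, edgeR adjusted p = 0.265, DESeq2 adjusted p = 0.033).

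Camk2b, at 2.19, 3.15 and 2.60 CPM in controls and 3.53, 4.18 and 3.96 CPM in smoking libraries, did not overlap either (log2 fold 0.60, SE 0.23, edgeR adjusted p = 0.268). The share of all genes without overlap was not counted in either class, so nothing is read from the members without overlap. The log2 folds were 0.31 for Smim23 (SE 0.16), 0.28 for 4933411E08Rik (SE 0.13) and 0.24 for Nsun7 (SE 0.10), with edgeR adjusted p of 0.333, 0.293 and 0.284. Tmem239 was the exception in sign, at 2.62, 3.01 and 2.30 CPM against 2.50, 2.18 and 2.21 CPM (log2 fold -0.14, SE 0.24, edgeR adjusted p = 0.797). Without control 3, edgeR called 54 of 14044 genes in this class and no member, with log2 folds of 0.58 for Lyrm7 and 0.43 for Hoxa4 (adjusted p = 0.062 and 0.061). In barcodes of this class with at least 10000 UMIs, edgeR called 1 of 12107 genes and no member. The log2 folds there were 0.86 for Camk2b, 0.51 for Smim23, 0.38 for 4933411E08Rik and 0.38 for Lyrm7. They were 0.27 for Hoxa4, 0.11 for Nsun7 and -0.14 for Tmem239.

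In spermatocyte-like barcodes edgeR called 0.0% of 11093 genes higher and none lower, with 605 at an unadjusted p under 0.05 and 1 called by DESeq2. Hoxa4 was at 216, 216 and 222 CPM in controls and 264, 226 and 325 CPM in smoking libraries. The groups did not overlap, but smoking library 2 was near the controls, and the log2 fold was 0.33 (SE 0.13, edgeR adjusted p = 0.795). The log2 folds of the others were 0.52 for Camk2b (SE 0.36), 0.30 for Lyrm7 (SE 0.32), 0.24 for 4933411E08Rik (SE 0.30), 0.18 for Nsun7 (SE 0.14) and -0.15 for Smim23 (SE 0.29), none past the test, and Tmem239 had too few UMIs to be tested.

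**Figure D4:**
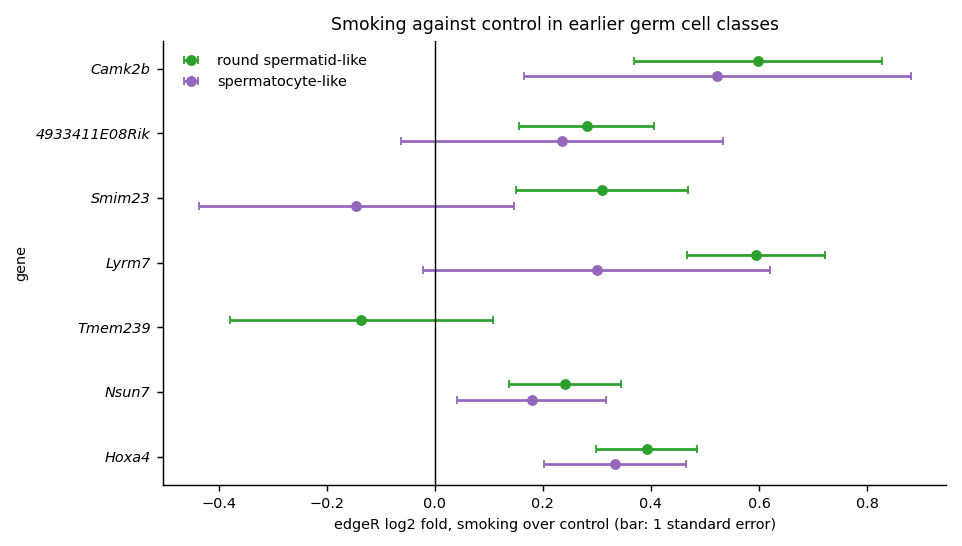
EdgeR log2 fold of smoking over control (points) with 1 standard error (bars) for each gene in round-spermatid-like (green) and spermatocyte-like (purple) barcodes, 3 libraries a group. Lyrm7 and Hoxa4 lie at 0.59 and 0.39 in round-spermatid-like barcodes, Tmem239 lies below 0 and has no spermatocyte-like value, and no gene passed edgeR's adjusted threshold.

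Relatives of the members, like most genes, were mostly not called with smoke. At 20% or more edgeR called none of 9 tested calmodulin and calmodulin kinase genes, 12 LYR motif and complex III assembly genes, 6 RNA 5-methylcytosine genes, 4 other Hox genes and 13 other Smim genes in either direction with smoke. Over all genes it called 1.59% higher and 2.34% lower there. The median log2 folds of these lists were -0.13, -0.08, -0.17, -0.04 and -0.14, beside -0.03 over all genes tested. With total UMI scaling 2, 1, 0, 0 and 1 of them were called lower and none higher, where 5.81% of all genes were called lower. In round-spermatid-like barcodes none of 12, 15, 8, 7 and 16 tested members of these lists was called. There edgeR called 0.0% of all 13853 genes in either direction, so nothing is read from this.

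Along the protamine scale, counts of relatives are given for calls under both scalings. In the step to 10 to 20%, 14 of 15 late spermatid genes rose, while among relatives 0 of 12 calmodulin, 0 of 15 LYR motif and complex III, 0 of 9 RNA 5-methylcytosine, 2 of 6 Hox and 1 of 16 Smim genes rose and 2, 5, 4, 1 and 5 fell. Over all 13854 genes 11.4% rose and 36.9% fell under both scalings in this step.

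Camkk2, a kinase that activates other calmodulin kinases, rose from under 2% to 2 to 10% (log2 fold 1.22 with TMM, 1.04 with total UMIs), as did Camk4 (0.51 and 0.32), and Calm2, which encodes calmodulin, fell in that step and the next. Hoxc9 rose in the first 2 steps (3.56 and 3.37 in the first) and Hoxb3 from 2 to 10% to 10 to 20% (3.72 and 2.80), and Hoxa3, which spans Hoxa4, fell in the first step (-1.22 and -1.40). Nsun4, a mitochondrial RNA methyltransferase, rose in the first step (0.79 and 0.61). Nop2, which methylates ribosomal RNA, fell in the last step (-2.75 and -3.63).

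Ndufa6, a LYR motif subunit of respiratory complex I, fell in the last step (-1.24 and -2.12). Uqcrfs1, the Rieske protein that the Lyrm7 product binds, was singled out after its values were seen, and it fell from 2 to 10% to 10 to 20% (-0.79 and -1.69). Smim24 rose in that step (1.11 and 0.21) and Smim6 fell in the last (-1.88 and -2.77).

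Likeness of pattern was measured by Pearson's r of log2(CPM + 1) over the 24 combinations of library and range, among 7306 genes, as a description, since the points share libraries and depth. Tmem239 was most like Rnf138 (0.97), a ubiquitin ligase, and Ubl3 (0.97), and Smim23 was most like 2810408A11Rik and 1700003F12Rik (0.97 each). 4933411E08Rik was nearest Atad1 (0.94) and Arl9 (0.93), and Camk2b nearest Bmp7 (0.92), a growth factor, and Rundc3a (0.92). Hoxa4 was nearest Rangrf (0.90) and Slc25a39 (0.87), whereas Lyrm7 (0.81 with Gm16677) and Nsun7 (0.79 with Optn) had no gene as close. Among the members, 4933411E08Rik and Smim23 (0.92) and Smim23 and Tmem239 (0.89) were the most alike, and Camk2b and Lyrm7 ran in opposite directions (-0.51).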

How the data were processed

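Per the file headers the deposited matrices hold raw UMI counts per gene and barcode, written by Cell Ranger 3.1.0. Another version, 7.1.0, stands beside CASAVA 1.8 and mm10 in the submitters' processing notes, so the version behind the counts is unclear. Barcodes over 20% mitochondrial UMIs and the 3935 of highest doublet score were removed, leaving 47959 of 54253. Classes came from Leiden clustering (leidenalg 0.10.2; 2000 variable genes without the 7 genes, 30 components, 32 clusters), named "-like" where at least 3 listed markers led, more than of any other type, and under 50% of barcodes scored as doublets. Counts were summed per library and range or class, and every range held at least 20 barcodes in each library. Tests used edgeR 4.0.16 (quasi-likelihood, TMM, filterByExpr, Benjamini-Hochberg adjusted p under 0.05 over all genes tested), checked on simulated data, with DESeq2 1.42.0 as an alternative. The standard error is the log2 fold divided by the root of F. Counting error and free RNA limit low levels: 1 UMI in a library's range of 2 to 10% equals up to 1.49 CPM (Camk2b in control 1).

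The 7 genes are reported with up to 4 genes of each related list, those of lowest p across the ranges, and the 2 genes most alike. A result for a list gene is not reported here. The 7 genes, the ranges and the lists of related genes were chosen with earlier results of these data known. Motifs were searched on both strands, and 30766 of 30905 genes matched the annotation. The labels give no batch, so there are no within-batch values.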

Additional observations from a re-analysis of the deposited data

How the results depend on the processing

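At equal percent, the log2 ratio of all 7 genes kept its sign under 17 alternatives each, with ranges of 0.55 to 1.05 for Camk2b, 0.54 to 0.95 for 4933411E08Rik, 0.17 to 0.45 for Smim23, 0.39 to 0.78 for Lyrm7, 0.20 to 0.60 for Tmem239, 0.24 to 0.44 for Nsun7 and 0.17 to 0.33 for Hoxa4. Of the 7, 4 to 7 had no overlap. The share of all genes higher with smoke without overlap was counted for only some alternatives, at 5.05% to 11.0%. The genes were chosen by this contrast, so nothing is read from that count. All 7 changed across the ranges under every alternative, but so did most genes tested. These numbered from 15686 of 24779 without the filter on low counts to 13479 of 13854 with total UMI scaling. In round-spermatid-like barcodes the number of genes called, 0 as reported, was 585 of 23500 without the filter on low counts (3 of the 7 genes: Smim23, Lyrm7 and Hoxa4), 64 of 6600 with DESeq2 (2 of the 7), 1 of 12107 at 10000 UMIs or more, and 0 to 54 when 1 library was left out (54 of 14044 without control 3). In spermatocyte-like barcodes it was 65 without the filter, 1 with DESeq2 and 0 to 1 when 1 library was left out. Signs turned for Tmem239 in round-spermatid-like barcodes over all deposited barcodes (0.11), for Smim23 in spermatocyte-like barcodes at 10000 UMIs or more (0.19) and without smoking library 3 (-0.39 to 0.12 when 1 library was left out), and for Lyrm7 there without smoking library 2 (-0.0017 to 0.68); the cause was not tested. Several alternatives were chosen after seeing the data: total UMI scaling, limits at 25% and 30%, germ cell clusters only, the highest range alone (with and without control 3), and 10000 UMIs or more in the classes. No paired analysis was possible because the labels give no replicate number that links control and smoking libraries.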
